A study of Mus musculus with 34 samples.

Results

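Transcripts of 9 genes that silence retroelements in embryonic stem cells (Trim28, Setdb1, Zfp57, Zfp809, Atf7ip, Daxx, Cbx1, Cbx3 and Cbx5) were followed in J1 mESCs grown without LIF, with or without Royalactin. They were taken by gene symbol from the 23366 symbols of the RNA-seq table, as a set proposed with earlier results of these data known, and all 9 passed the filter that left 12993 genes for testing. J1 is an established line of mouse embryonic stem cells that needs LIF, a cytokine, to stay undifferentiated in serum, and Royalactin is a major protein of honeybee royal jelly. In serum/-LIF, 2 libraries came from cells in serum medium from which LIF had been left out, and in serum/-LIF + Royalactin, 2 libraries came from cells in the same medium with purified Royalactin at 0.5 mg/ml. The protein was recombinant and tagged, and both conditions are of this single line. Passage 40 is given in the labels and passage 10 in the methods text for these cells. The protocol speaks of triplicate cultures and the design text of duplicates, and 2 libraries per condition were analysed here. Their separate origin is not stated library by library, so the tests measure the spread between libraries. The series holds 34 samples, of which 30 are ATAC-seq samples that were not analysed here.

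Retroelements are mobile sequences that copy themselves through RNA, and embryonic stem cells hold many of them silent with histone marks. KRAB zinc finger proteins such as Zfp57 and Zfp809 read DNA sequence and recruit Trim28 (also KAP1 or TIF1 beta), a scaffold that brings the H3K9 methyltransferase Setdb1. Setdb1 is stabilised by Atf7ip, the trimethylated H3K9 is bound by the HP1 proteins encoded by Cbx5 (alpha), Cbx1 (beta) and Cbx3 (gamma), and Daxx with Atrx places histone H3.3 at the same kind of repeat. Zfp57 also keeps parental methylation at imprinted loci, and Zfp809 is known for silencing murine leukemia virus proviruses. Of these 9 genes, Zfp57 rose in serum/-LIF + Royalactin and the other 8 did not pass the test. Trim28 carried the highest counted level per kilobase of exon in both conditions, with no correction for exon sequence found elsewhere in the genome. The 3 HP1 genes, like Setdb1, Zfp809, Atf7ip and Daxx, had fold changes with 95% intervals on both sides of no change.

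The values are normalized counts, that is, reads per gene divided by one size factor per library, so they compare a gene between libraries but not genes of different length. Genes received 14737796 to 17597818 reads per library. The ribosomal precursor Rn45s took 21.6 to 46.6% of them in serum/-LIF and 9.08 to 38.4% in serum/-LIF + Royalactin, which left 7878527 to 15999458 reads for other genes. Of 10 pluripotent stem cell markers, 4 passed the test, all higher with Royalactin, and their summed level was 25974 and 31928 in serum/-LIF against 35677 and 43123 in serum/-LIF + Royalactin. The 12 fibroblast markers summed to 424 and 431 against 221 and 136, with Pdgfrb, Postn and Prrx1 at 0 in all 4 libraries and 0 passing the test among the 5 with enough reads. The trophoblast markers summed to 1796 and 1827 against 530 and 907, with Elf5 at 0 throughout. Of the 4 tested, 3 had a log2 fold change below 0 and 1 above, and 2 passed the test as lower. Neural markers summed to 2148 and 1737 against 1208 and 1353, with Neurog2 at 0 throughout. Of the 6 tested, 4 had a log2 fold change above 0 and 2 below, and 1 passed the test as lower. Endoderm markers summed to 5522 and 3448 against 3783 and 3783, with 0 of 6 passing. In bulk libraries such as these, fewer cells of a type and less RNA per cell cannot be told apart. The part of these marker and Rn45s differences in the results below was not tested.

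Zfp57 (ENSMUSG00000036036, mm9 chr17:37138108-37147580, plus strand) encodes the KRAB zinc finger protein that binds a methylated hexamer at imprinting control regions. It was the one gene of the 9 that passed the test, so its promoter sequence is shown. RefSeq gives 3 gene starts for it. Windows of 300 bases, from 250 before to 50 after a start, were taken from the RefSeq table of GRCm38.p6. Each matched 1 place on its own chromosome in mm9, and other chromosomes were not searched. The first window shown lies at the gene start of the mm9 annotation (chr17:37137858-37138157, plus strand) and the second at a start 1362 bases further downstream (chr17:37139220-37139519, plus strand), with capitals for AAGGTCA, a short site of the nuclear receptor Esrrb, here on the minus strand and so read as TGACCTT 7 bases after the start.
Zfp57 upstream start: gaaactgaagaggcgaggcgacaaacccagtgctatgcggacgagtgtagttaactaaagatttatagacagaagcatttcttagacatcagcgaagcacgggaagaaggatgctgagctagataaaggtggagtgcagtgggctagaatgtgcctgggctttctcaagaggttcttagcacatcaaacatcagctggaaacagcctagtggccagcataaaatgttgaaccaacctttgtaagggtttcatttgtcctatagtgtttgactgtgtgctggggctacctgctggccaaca
Zfp57 downstream start: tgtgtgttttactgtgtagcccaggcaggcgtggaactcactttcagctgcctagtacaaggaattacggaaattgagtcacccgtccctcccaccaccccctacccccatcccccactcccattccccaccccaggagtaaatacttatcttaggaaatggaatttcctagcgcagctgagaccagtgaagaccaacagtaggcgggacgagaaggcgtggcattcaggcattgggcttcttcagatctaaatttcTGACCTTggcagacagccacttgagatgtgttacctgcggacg

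Letters of 6 motifs were searched on both strands of the 16 windows of the 9 genes, namely AAGGTCA, the STAT dimer site TTCNNNGAA, the octamer ATTTGCAT, the Sox site ATTGTT, the Klf box CCACACCC and the Zfp57 hexamer TGCCGC. The Esrrb letters were found in the downstream window of Zfp57 and in 4.72% of all 32851 RefSeq windows, and the upstream window held none of the 6. The STAT site, found in 8.3% of all windows, and the Klf box, found in 3.56%, were in none of the 16. ATTTGCAT occurred in the Atf7ip window, with 2 matches, and in 1.74% of all windows. ATTGTT occurred in the Trim28 window, in the Zfp57 window not shown and in 10.7% of all windows. The start of that Zfp57 window lies 2503 bases downstream of the mm9 gene start. TGCCGC lay 59 bases before the Trim28 start and in 11.6% of all windows. A match describes the letters of the window and does not show that a factor binds there.

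Zfp57 had 425.3 and 470.9 normalized counts in serum/-LIF, compared with 1547 and 1569.4 when Royalactin was added. Both Royalactin libraries lay far above both serum/-LIF libraries, and the replicates of each condition lay close together. The means were 448.1 ± 32.3 and 1558.2 ± 15.9 (SD, n = 2), a 3.48-fold rise (95% interval 2.21 to 5.47), which is 1.80 on the log2 scale (SE 0.30, limma adjusted p = 0.0184). The values rest on 318, 455, 1538 and 2280 reads. None of the 75-base tiles of its exons matched elsewhere in the genome with up to 2 mismatches. In the fits that left out any one of the 4 libraries the log2 fold change of Zfp57 stayed between 1.72 and 1.87, but the limma adjusted p lay between 0.166 and 1 and 0 of all genes passed. Without a trend of the variance on expression its limma adjusted p was 0.286.

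Zfp809 (ENSMUSG00000057982, chr9:22030274-22047641, plus strand), the KRAB zinc finger protein that recognises the proline primer binding site of murine leukemia viruses, showed no such difference. It had 367.8 and 624.1 normalized counts in serum/-LIF and 541.1 and 539 in serum/-LIF + Royalactin, so that both Royalactin values lay between the serum/-LIF values. The means were 495.9 ± 181.3 and 540.1 ± 1.54 (SD, n = 2), with a fold change of 1.13 (95% interval 0.658 to 1.93, limma adjusted p = 0.923). The interval leaves room for a change of either sign, and the log2 fold change of 0.17 became -0.21 without serum/-LIF replicate 1. Per kilobase of exon, Zfp57 stood at 0.393 and 0.257 of the level of Zfp809 in the serum/-LIF replicates and at 0.972 and 0.99 in the Royalactin replicates.

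**Figure D1:**
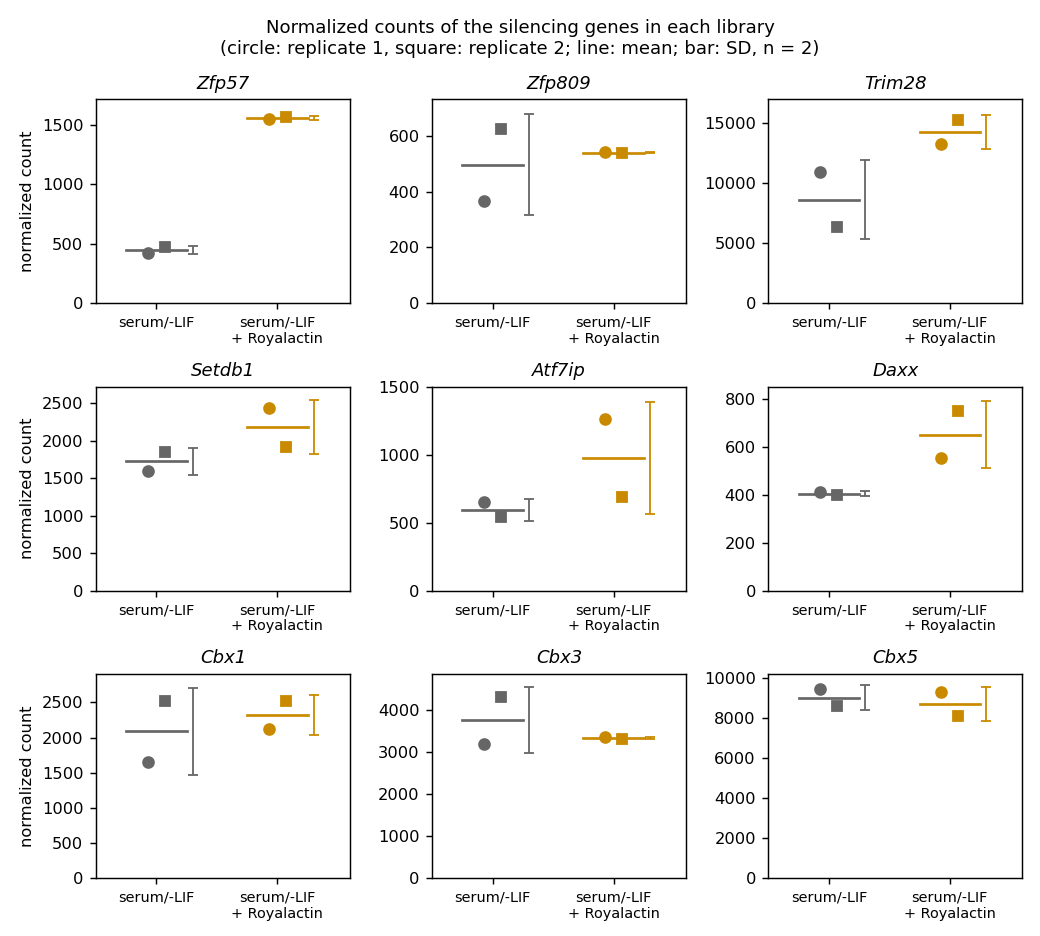
Normalized counts (linear vertical axes from 0, one panel per gene) of the 9 genes in the 2 serum/-LIF and the 2 serum/-LIF + Royalactin libraries, with a circle for replicate 1, a square for replicate 2, a line for the mean and a bar for the SD (n = 2). Both Royalactin points of Zfp57 lie at 1547 or higher and both serum/-LIF points at 470.9 or lower, whereas the points of Zfp809, Cbx1, Cbx3 and Cbx5 overlap between conditions.

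Trim28 (ENSMUSG00000005566, chr7:13609501-13616384, plus strand), the scaffold that KRAB zinc finger proteins recruit, was among the most abundant transcripts. It had 10913.9 and 6323.1 normalized counts in serum/-LIF, compared with 13228.8 and 15197.9 with Royalactin. Both Royalactin values were the higher ones, and the serum/-LIF replicates lay further from each other than replicate 1 lay from the nearer Royalactin library. The means were 8618.5 ± 3246.2 and 14213.4 ± 1392.3 (SD, n = 2), a fold change of 1.71 (95% interval 1.01 to 2.89) which is 0.77 on the log2 scale (SE 0.35, limma adjusted p = 0.527), which did not pass. Trim28 passed with a correction for GC content and exon length combined with the replicate number as a block (log2 fold change 0.68, limma adjusted p = 0.00782), and with that block alone its adjusted p was 0.139. Leaving out serum/-LIF replicate 1 gave 1.16 and leaving out replicate 2 gave 0.38 on the log2 scale. Of the values without Rn45s, Trim28 made up 0.104 and 0.0528% in serum/-LIF and 0.125 and 0.138% with Royalactin, and it ranked 96 and 277 among the symbols of the serum/-LIF libraries and 63 and 70 in the Royalactin libraries. Its exon GC content was 57.3%, the highest of the 9 genes.

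Setdb1 (ENSMUSG00000015697, chr3:95127447-95161124, minus strand) encodes the enzyme that trimethylates H3K9 at Trim28 target sites. It had 1596.8 and 1848.6 normalized counts in serum/-LIF and 2432.1 and 1919.8 with Royalactin. The Royalactin values were both higher, by a margin that for replicate 2 was smaller than the gap between the serum/-LIF replicates. The means were 1722.7 ± 178.1 and 2176 ± 362.3 (SD, n = 2), with a fold change of 1.26 (95% interval 0.812 to 1.95) and a limma adjusted p of 0.787. Its exons overlap those of Lass2 on the other strand, and 14.2% of its exon tiles matched elsewhere. The strand setting of the authors' counting is not given in the sources used here, so reads of the overlap cannot be assigned to one gene.

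Atf7ip (ENSMUSG00000030213, chr6:136467372-136555898, plus strand), the partner that keeps Setdb1 in the nucleus and protects it from degradation, had 652.6 and 539.3 normalized counts in serum/-LIF and 1267.4 and 686.3 with Royalactin. Royalactin replicate 1 stood apart, and replicate 2 lay just above the serum/-LIF values. The means were 595.9 ± 80.2 and 976.8 ± 410.9 (SD, n = 2), with a fold change of 1.57 (95% interval 0.924 to 2.67, limma adjusted p = 0.625). The log2 fold change of 0.65 was 0.21 without Royalactin replicate 1 and 1.09 without replicate 2. Per kilobase of exon, Setdb1 exceeded Atf7ip in every library, by 1.62 and 2.26 times in serum/-LIF and by 1.27 and 1.85 times with Royalactin, and Trim28 exceeded Setdb1 by 11.6 and 5.8 times and by 9.22 and 13.4 times, with overlap between the conditions for both ratios.

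Daxx (ENSMUSG00000002307, chr17:34046359-34052534, plus strand), the H3.3 chaperone, had 411.9 and 398.5 normalized counts in serum/-LIF and 553.2 and 751.7 with Royalactin. Its serum/-LIF replicates were close together and both Royalactin values were higher, with a wider gap between them. The means were 405.2 ± 9.48 and 652.4 ± 140.3 (SD, n = 2), with a fold change of 1.59 (95% interval 0.958 to 2.64, limma adjusted p = 0.591), and the difference did not pass.

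The HP1 genes encode the chromodomain proteins that read methylated H3K9, and none of the 3 differed by more than its replicates. Cbx5 (HP1 alpha, ENSMUSG00000009575, chr15:103021975-103070247, minus strand) had 9436.2 and 8567.1 normalized counts in serum/-LIF and 9293 and 8082.5 with Royalactin, a fold change of 0.964 (95% interval 0.605 to 1.53, limma adjusted p = 0.975). Cbx1 (HP1 beta, ENSMUSG00000018666, chr11:96650441-96669954, plus strand) had 1650.3 and 2525.5 in serum/-LIF and 2123.3 and 2523.5 with Royalactin, a fold change of 1.13 (95% interval 0.714 to 1.8, limma adjusted p = 0.901). For Cbx3 (HP1 gamma, ENSMUSG00000029836, chr6:51420359-51433703, plus strand) the values were 3201.6 and 4324.4 against 3351.5 and 3315.1, a fold change of 0.896 (95% interval 0.576 to 1.39, limma adjusted p = 0.908). In each of the 3 genes the conditions overlapped. The log2 fold changes were small enough to change sign when one library was left out, to 0.02 for Cbx5 and -0.13 for Cbx1 without serum/-LIF replicate 1, to 0.06 for Cbx3 without serum/-LIF replicate 2 and to 0.05 for Cbx5 without Royalactin replicate 2, and scaling by the total without Rn45s moved that of Cbx5 from -0.05 to 0. Of the exon tiles of Cbx3, 45.7% also matched another place in the genome, and 6.59% of those of Cbx1 did, so the counts of Cbx3 are uncertain.

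Per kilobase of exon, the 3 HP1 transcripts together stood at 2425.5 and 2881.6 in serum/-LIF and 2566.7 and 2514.7 with Royalactin, with both Royalactin sums between the serum/-LIF sums. Cbx3 made up 40.9 and 46.5% of that sum in serum/-LIF and 40.4 and 40.8% with Royalactin. Cbx5 took 43.2 and 33% against 40.2 and 35.7%, and Cbx1 took 15.9 and 20.5% against 19.4 and 23.5%. The order of Cbx3 and Cbx5 was not the same in the serum/-LIF replicates, and Cbx1 was the lowest of the 3 in all 4 libraries. The sums and shares carry the uncertainty of the Cbx3 counts.

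Across the 9 genes, 1 passed at a limma adjusted p under 0.05 (Zfp57, higher), whereas 64 of the 12993 tested genes, or 0.493%, passed in either direction, 43 higher and 21 lower. By the limits of the study, an unadjusted p under 0.05 and a fold of at least 2 applied here to the limma fit, Zfp57 alone of the 9 was selected, where 7.13% of tested genes were. With the fold lowered to 1.5, Trim28 was selected as well. For 5 genes (Trim28, Setdb1, Zfp57, Atf7ip and Daxx), or 55.6%, both Royalactin libraries lay above both serum/-LIF libraries, as for 19.7% of tested genes. None of the 9 had both Royalactin libraries below, as 18.9% of tested genes had, and the other 4 overlapped. The log2 fold change was above 0 for 7 of the 9 and for 49.4% of tested genes, with a median of 0.33 over the 9 and of -0.01 over all tested genes. The 9 genes were picked with earlier results of these data known, so these counts describe them and are no test of the group.

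**Figure D2:**
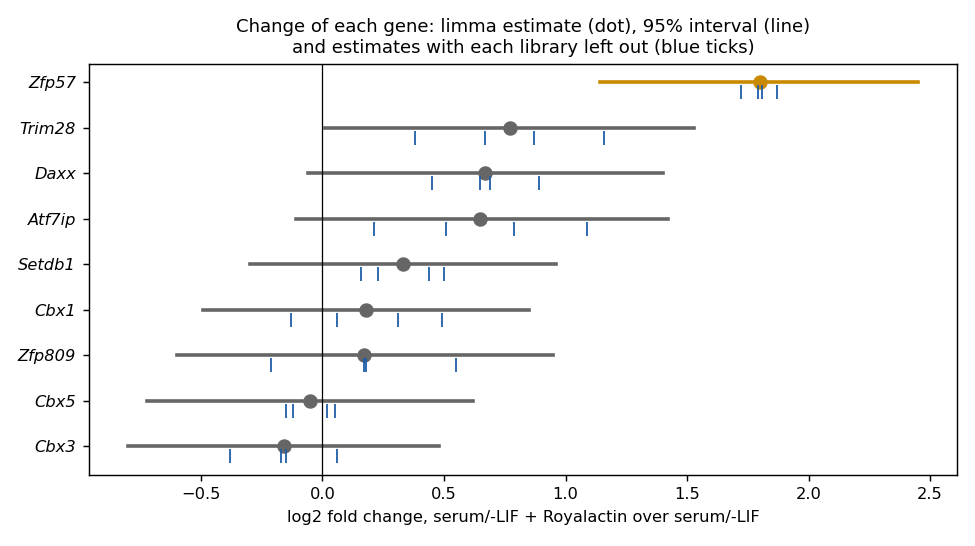
Log2 fold change of each of the 9 genes, serum/-LIF + Royalactin over serum/-LIF (horizontal axis), with dots for limma estimates, lines for 95% intervals and blue ticks for the estimates with each library left out. The interval of Zfp57 runs from 1.14 to 2.45 and that of Trim28 from 0.01 to 1.53, whereas the intervals of the other 7 include 0.

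Levels of different genes were compared as normalized counts per kilobase of exon. Exon lengths were not reduced for tiles that matched elsewhere, which were 45.7% of those of Cbx3 and 0% of those of Trim28. The order of Trim28 and Cbx3 in serum/-LIF is therefore uncertain. In serum/-LIF, Trim28 had the highest mean level, 2131.2 ± 802.7 (SD, n = 2), followed by Cbx3 (1165.4 ± 245.9), Cbx5 (999.5 ± 68.2), Cbx1 (488.6 ± 144.8), Zfp809 (385.4 ± 140.9), Setdb1 (251.4 ± 26), Daxx (132.5 ± 3.1), Atf7ip (131.7 ± 17.7) and Zfp57 (118.4 ± 8.53). Among neighbours in this order, the libraries of Cbx3 and Cbx5, of Cbx1 and Zfp809, of Daxx and Atf7ip and of Atf7ip and Zfp57 overlapped, and the others did not. With Royalactin, Trim28 was again first at 3514.7 ± 344.3, ahead of Cbx3 (1032.3 ± 7.97), Cbx5 (964.7 ± 95), Cbx1 (543.7 ± 66.2), Zfp809 (419.6 ± 1.19), Zfp57 (411.6 ± 4.19), Setdb1 (317.5 ± 52.9), Atf7ip (215.9 ± 90.8) and Daxx (213.4 ± 45.9). Here the libraries of Cbx3 and Cbx5 and of Atf7ip and Daxx overlapped, and those of Setdb1 and Atf7ip met at 280.1. Zfp57 was thus the lowest of the 9 in serum/-LIF and the sixth with Royalactin, close to Zfp809. Relative to Trim28, Zfp57 stood per kilobase at 0.0416 and 0.0796 in serum/-LIF and at 0.125 and 0.11 with Royalactin.

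**Figure D3:**
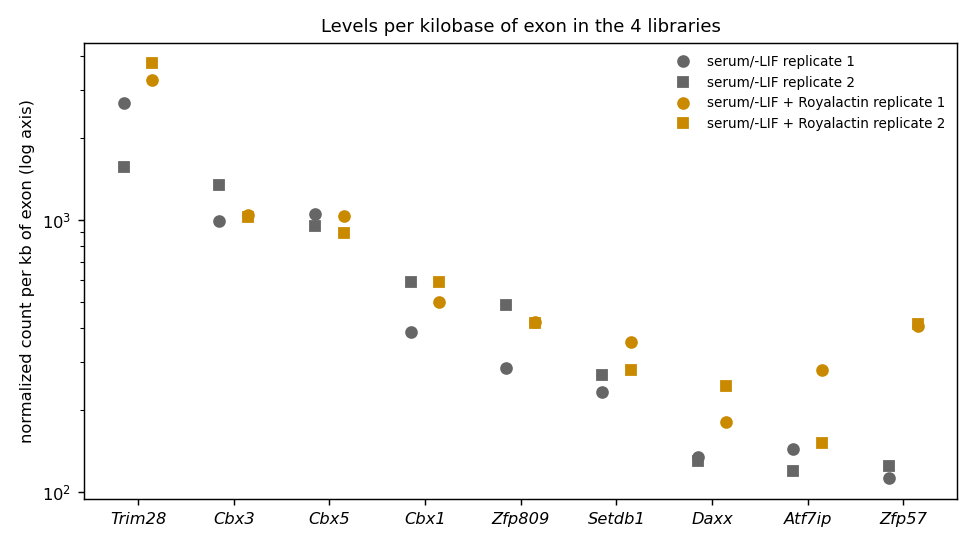
Normalized count per kilobase of exon (log vertical axis) of the 9 genes in each of the 4 libraries, grey for serum/-LIF and orange for serum/-LIF + Royalactin, circles for replicate 1 and squares for replicate 2. Trim28 lies highest in every library as counted, with no correction for Cbx3 exon sequence that matches elsewhere. Zfp57 moves from between 112.3 and 124.4 in serum/-LIF to between 408.6 and 414.5 with Royalactin.

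Likeness to Trim28 and Zfp57 was measured as the root mean square difference of log2 values, centred on each gene's mean, over the 4 libraries. For Trim28 the most alike were Depdc1b (0.029), Ostm1 (0.031) and Tmem222 (0.038), none of which passed the test. For Zfp57 they were Spp1 (0.083), Sult6b1 (0.103) and Cenpm (0.121). Spp1, the gene for osteopontin, went from 843.9 and 1095.1 to 3438 and 3390.8 normalized counts and passed the test (limma adjusted p = 0.0132), and Sult6b1 and Cenpm did not. With 4 libraries many genes can share a pattern, so this is a description only.

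The other genes of the pathway were followed in 10 lists of 114 genes in the table, of which 91 were tested. One of them passed at a limma adjusted p under 0.05, higher with Royalactin, beside 0.493% of all tested genes in either direction, and 0 passed in the lower direction, where 2 had an unadjusted p under 0.05 against 6 in the higher one. Both Royalactin libraries lay above for 19.8% of these genes, next to 19.7% of all tested genes, and below for 8.79%, next to 18.9%. The log2 fold change was above 0 for 63.7% of them and for 49.4% of all tested genes.

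The gene that passed was Morc1, a MORC family ATPase that silences transposons in the male germ line. It had 123 and 190.4 normalized counts in serum/-LIF and 962.6 and 1061.4 with Royalactin, with means of 156.7 ± 47.7 and 1012 ± 69.9 (SD, n = 2). The 6.57-fold rise (log2 fold change 2.72, SE 0.37, 95% interval 1.92 to 3.51, limma adjusted p = 0.00417) was the largest in its list. Like Zfp57, Morc1 did not pass in fits with any one library left out (limma adjusted p from 0.166 to 1, log2 fold change 2.40 to 3.03), nor without the variance trend (adjusted p = 0.213). Its list, the HUSH complex and MORC proteins, had 4 of 7 tested genes above 0 and a median log2 fold change of 0.19. At an unadjusted limma p under 0.05, 3 were higher and 1 was lower, where 1214 of all 12993 tested genes met that limit. Morc3, looked up after its values had been seen, was among the higher ones. It had 1594.1 and 1690.2 against 3195.6 and 3215.9 (limma adjusted p = 0.218). Pphln1, the HUSH subunit periphilin, had the largest fall of the list in value, from 1671.7 and 2039 to 1225.1 and 811.6 (log2 fold change -0.89, limma adjusted p = 0.359), which did not pass. The HUSH subunit Tasor, listed as D14Abb1e, was looked up after its values had been seen, and had 2224 and 2518.3 against 4971.9 and 3525 (limma adjusted p = 0.378).

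In the list of other KRAB zinc finger proteins and TIF1 family genes, 0 of 11 tested genes passed (1 had an unadjusted p under 0.05), 8 lay above 0, and the median was 0.06. Zfp819, a KRAB zinc finger gene, had the largest positive difference, with 148.4 and 140.8 normalized counts in serum/-LIF against 406.4 and 462.6 with Royalactin (log2 fold change 1.58, limma adjusted p = 0.136). Both Royalactin values were clearly the higher ones, while the adjusted p missed the threshold. Zfp708 lay lowest, with 112.3 and 344.7 against 95.6 and 140.4 (log2 fold change -0.76, limma adjusted p = 0.735) and overlapping libraries. Among all 333 tested genes whose symbol starts with Zfp, a group chosen after values had been seen, 2 passed, Zfp57 and Zfp42, both higher, and 0 passed lower (18 and 8 at an unadjusted p under 0.05), with 50.8% above 0 and a median of 0. Of all 12993 tested genes 0.493% passed and 1214 had an unadjusted p under 0.05, so the share of Zfp genes passing was near the background. Zfp42, which encodes Rex1, a marker of undifferentiated cells, had 490.8 and 703.8 normalized counts in serum/-LIF and 2725.8 and 3083.1 with Royalactin (log2 fold change 2.30, limma adjusted p = 0.00371). By log2 fold change Zfp57 ranked 7 of these 333 and Zfp809 ranked 129.

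Of the H3K9 and H4K20 methyltransferases and their partners, 0 of 11 passed by limma (0 at an unadjusted p under 0.05), 7 lay above 0, and the median was 0.31. Setdb2 had the highest log2 fold change, 0.73 (181.9 and 126.3 against 223.3 and 285.7 normalized counts, limma adjusted p = 0.664), and Zfp644, a partner of the G9a complex, the lowest, -0.54 (2712.1 and 3810 against 2183.7 and 2246.1, limma adjusted p = 0.631). The 13 NuRD and LSD1 corepressor genes that join Trim28 had 0 passing (0 unadjusted), 6 above 0 and a median of -0.08. Their log2 fold changes ran from -0.72 for the remodeller Chd3 (485.4 and 475.1 against 285.7 and 296.7, limma adjusted p = 0.573) to 0.29 for the histone binding protein Rbbp4 (4239.3 and 4012.9 against 5193.2 and 4898.2, limma adjusted p = 0.814). Both Royalactin libraries lay above for 5 and below for 2 of the 11 methyltransferase genes and above for 1 and below for 1 of the 13 corepressor genes, where the shares of all tested genes were 19.7% and 18.9%.

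Among H3.3, ATRX and histone chaperone genes, the surroundings of Daxx, 0 of 11 passed (0 unadjusted), 8 lay above 0, and the median was 0.3. Pml, the scaffold of the nuclear bodies that hold Daxx, had 1421.6 and 840.5 normalized counts against 1768.3 and 1282.4 (log2 fold change 0.46, limma adjusted p = 0.733), and the H3 chaperone gene Asf1a had 1100.6 and 2055.6 against 1186.9 and 1047 (-0.43, limma adjusted p = 0.751). SUMO pathway genes, which act on the link between Trim28 and Setdb1, had 0 of 14 passing (2 higher and 1 lower at an unadjusted p under 0.05), 9 above 0 and a median of 0.11. The SUMO ligase gene Pias2 had 1150.1 and 1306.2 against 2655.4 and 2338.3 (log2 fold change 1.02, limma adjusted p = 0.195), and the SUMO protease gene Senp7 had 120.4 and 80.7 against 12.1 and 49.6 (-1.95, limma adjusted p = 0.459). In these 2 SUMO genes, the largest rise and fall of the list, the libraries of the conditions did not overlap, but the adjusted p missed the threshold. Both Royalactin libraries lay above for 6 and below for 2 of the 14 SUMO genes. The shares of all tested genes were 19.7% and 18.9%.

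The 5 other chromobox genes, mostly readers in Polycomb complexes, had 0 passing (0 unadjusted), 3 above 0 and a median of 0.51. Cbx6 had 498.8 and 248.4 normalized counts in serum/-LIF against 388.3 and 198.2 with Royalactin (log2 fold change -0.34, limma adjusted p = 0.868), with overlapping libraries. All 8 genes of HP1 binding and shadow chromodomain proteins lay above 0, by a median of 0.15, with 0 passing (0 unadjusted), and ran from 0.02 for Adnp2, whose means of 820 and 818.4 were nearly equal, to 0.27 for Adnp (1628.9 and 1177.9 against 2084.1 and 1337.4, limma adjusted p = 0.849).

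Single retroelement insertions were not measured by this gene table. Genes that derive from retroelements or are driven by them were listed instead, and whether their RNA follows silencing of insertions was not tested. Of 17 retroelement-derived genes in the table, 5 had enough reads to be tested, 0 passed (0 unadjusted), 4 lay above 0, and the median was 0.26. The imprinted gene Peg10 had 2002 and 1592.9 against 1861.8 and 793 (log2 fold change -0.56, limma adjusted p = 0.707), and Ldoc1 had 18.7 and 0 against 29.2 and 5.51 (1.66, limma adjusted p = 0.848). Of 14 genes driven from MERVL repeats or released with them, 6 were tested, 0 passed (0 unadjusted), 1 lay above 0, and the median was -1.18. That median lies between Zscan4f (-1.32) and Sp110 (-1.03), both with few reads. Zscan4f had nearly equal means, 26.3 and 26, and its negative value comes from a Royalactin library at 1.01. Sp110 had 24.1 and 5.18 against 3.02 and 8.26, so the median does not show a fall of the list. Zscan4c had 10.7 and 83.8 against 0 and 33.7 (log2 fold change -2.42, limma adjusted p = 0.727). It has near-identical Zscan4 copies, and how reads common to them were counted was not checked. Zfp352, the 1 gene above 0, had 0 and 27.9 against 6.04 and 19.3 (log2 fold change 1.15, limma adjusted p = 0.901). The mean of Zfp352 was higher in serum/-LIF, 14 against 12.7, and the positive log2 value comes from its library at 0. The libraries of Zscan4c and Zfp352 overlapped between conditions, and at these levels a difference was not detectable. In 1 of the 6 tested genes, Usp17la, both Royalactin libraries lay below (25.4 and 30 against 10.1 and 10.3, limma adjusted p = 0.775). Of all tested genes, 18.9% had both below.

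**Figure D4:**
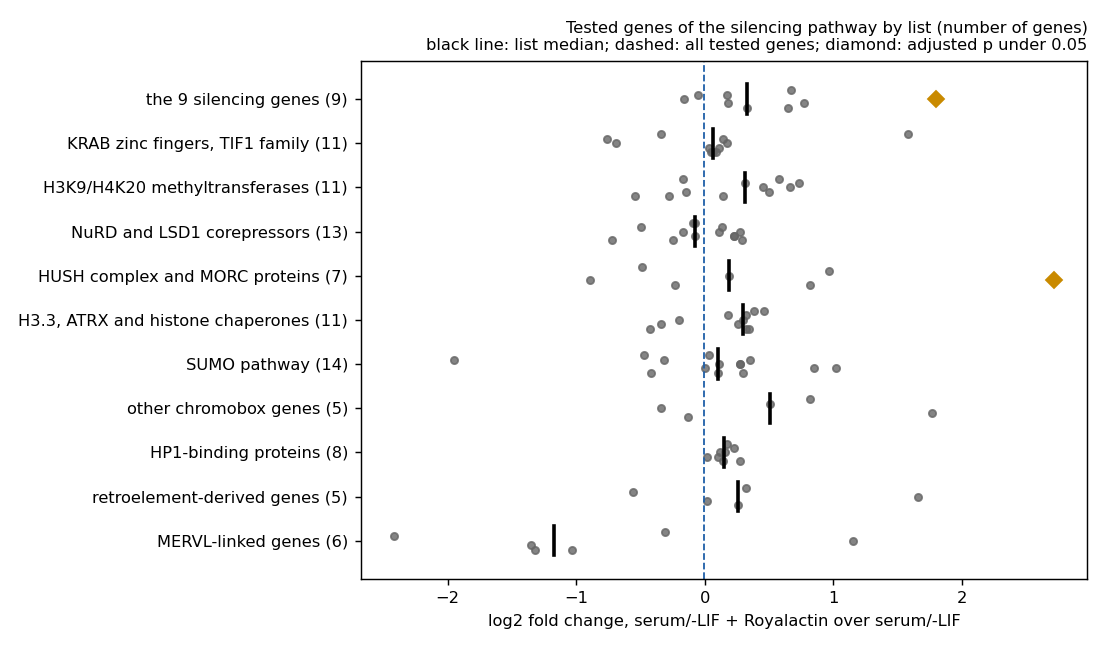
Log2 fold change (horizontal axis, serum/-LIF + Royalactin over serum/-LIF) of the 9 silencing genes (top row) and the tested genes of the 10 other pathway lists, one point per gene, with black lines for list medians, a dashed line for the median of all tested genes and diamonds for genes at an adjusted p under 0.05. The diamonds are Zfp57 at 1.80 and Morc1 at 2.72, and the medians of the 10 lists run from -1.18 to 0.51. The lowest median, of the MERVL-linked genes, rests on genes with few reads.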

How the data were processed

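RNA-seq of J1 mESCs was analysed in 4 libraries, 2 per condition, grouped by their labels. TopHat alignment to mm9 and HTSeq-count were used by the authors, who deposited the counts after division by DESeq size factors, a normalized signal per gene. The annotation and strand setting of the counting are not given in the sources used here. The 4 columns of values were mapped by name and 0 were left unmapped. In every library 100% of values were whole multiples of one step (tolerance 0.01 reads), taken as 1 read to give read numbers. The step of Royalactin replicate 1, 1.01, was too near 1 for a check of whole reads, so no test on counts was run. Date-like symbols numbered 27, and 2 symbols occurred more than once.

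The test was limma 3.58.1 (R 4.3.3) on log2 of the normalized count plus a pseudocount of 1, two-sided with a variance trend. P-values were adjusted by Benjamini-Hochberg over the 12993 genes whose mean was 10 or more. Fold changes share this log2 scale and so understate changes of low genes. The steps were tested on simulated data. Exon lengths, GC content and positions come from the GENCODE annotation of mm9, which matched 94.1% of symbols, and exon tiles of 75 bases of the 9 genes were mapped with minimap2 2.31-r1302, and copies of other genes were not checked. Promoter windows come from RefSeq (GRCm38.p6). The members and lists were chosen with earlier results of these data known. All members were named, and from each list the genes at an adjusted p under 0.05 and the largest rise and fall, of which 1 is not reported here. Alternatives were pseudocounts of 0.1 and 5, other filters and scalings, the replicate block, no variance trend, a GC and length correction, a lower fold limit and each library left out. Depth limits precision as counting error only, since PCR copies are not separate molecules.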

Additional observations from a re-analysis of the deposited data

How the results depend on the processing

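Zfp57 kept its direction in all 15 alternatives and passed in 10 of the 11 that keep every library, and so did Morc1 and Zfp42. The exception was limma without the variance trend, with 0 genes and 0 of the 9 members passing (adjusted p 0.286 for Zfp57, 0.213 for Morc1 and 0.246 for Zfp42). Each fit with a library left out kept only 1 library in a condition. In these fits the log2 fold change was 1.72 to 1.87 for Zfp57, 2.40 to 3.03 for Morc1 and 2.04 to 2.56 for Zfp42. Of all genes 64 passed, and 32 did with a pseudocount of 0.1, 34 over all genes above 0, 99 with a mean of at least 50, 253 with the GC and length correction, 391 with the replicate block and 799 with both, and the cause was not tested. Members passing numbered 2 with both (Trim28 and Zfp57), and 2 met the limits of the study at a fold of 1.5. With one library left out the log2 fold change turned sign in Cbx5 (-0.15 to 0.05, with 0.02 without serum/-LIF replicate 1 and 0.05 without Royalactin replicate 2), in Zfp809 (-0.21 to 0.55) and Cbx1 (-0.13 to 0.49) without serum/-LIF replicate 1, and in Cbx3 (-0.38 to 0.06) without serum/-LIF replicate 2. Scaling by the total without Rn45s gave 0 for Cbx5. Same-numbered libraries had deviations correlated at 0.0851. Rn45s took 46.6 and 38.4% of reads in replicate 1 of serum/-LIF and of serum/-LIF + Royalactin, and 21.6 and 9.08% in replicate 2. Whether the numbers mark paired libraries was not tested. The block alone left Zfp57 as the 1 member called (limma adjusted p = 1.87e-06) and changed no other member's call. With 2 libraries per condition, the 95% interval of Setdb1 alone, for example, runs from -0.3 to 0.96 on the log2 scale, so a p that missed the threshold does not show that a member did not change.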
